A study of Danio rerio with 6 samples.

Results

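The genes described here encode the calcium channels of the cardiomyocyte surface and the proteins with which the sarcoplasmic reticulum (SR) stores, releases and recovers calcium. They were chosen by name from a list of 34 zebrafish symbols, of which 30 matched a row among the 25281 genes counted in each library. The symbols ryr2a, pln, hrc and cacna1db matched no row by exact name and are not analysed here. Of the 30 genes found, 21 passed the expression filter of the test across all genes, and the other 9 are given as counts.

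Each heartbeat begins with calcium that enters through voltage-gated channels of the plasma membrane. In mammals this calcium opens ryanodine receptors, which release the larger store held in the SR on the buffer protein calsequestrin. The SERCA pump then returns calcium to the SR and the sodium/calcium exchanger expels the rest, so the muscle relaxes. In the atrioventricular canal, the slow-conducting ring between atrium and ventricle, the upstroke of the action potential is known to depend on calcium channels more than on sodium channels.

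RNA-seq was done on 6 libraries of cells sorted from the canal region of adult zebrafish hearts, 3 named GFP-positive and 3 named GFP-negative. All fish, aged 4 to 8 months, carried the same 3 transgenes. In Tg(myl7:GAL4db-TCFΔC-2A-mCherry) the myl7 promoter, active in cardiomyocytes, drives a GAL4 DNA-binding domain joined to a shortened TCF. Through the reporter Tg(UAS:EGFP), EGFP marks cardiomyocytes with β-catenin-dependent transcription (β-cat ON), and Tg(myl7:NLS-mCherry) marks cardiomyocyte nuclei. Groups are named after the titles. For the GFP-negative (β-cat OFF) libraries, however, the label for the sorted cells reads mCherry-negative and EGFP-positive, which conflicts with the titles and leaves its gate unclear. Nothing in the labels ties a replicate to its own fish or sort; p-values therefore measure only how these libraries vary, which could be technical variation. The question is how canal cardiomyocytes with and without active β-catenin signalling differ, here in their calcium-handling genes.

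Libraries held 14783352 to 19750914 counts. The mitochondrially encoded share was 11.9% to 15.7% in GFP-negative and 35.6% to 44.9% in GFP-positive libraries. At least 10 counts were found for 13069 to 14355 genes across GFP-negative libraries and for 10093 to 12834 across GFP-positive ones. Among the 13490 tested genes, 66, 4 and 13 were at 0 counts in GFP-negative replicates 1, 2 and 3. For GFP-positive replicates 1, 2 and 3 these numbers were 956, 725 and 1270. Whether this wider loss of detection underlies low values of single genes was not tested. By both measures detection was poorest in GFP-positive replicate 3. That library also correlated least with the other libraries across genes, with r from 0.706 to 0.757. Levels below are CPM, counts per 1e6 counts of a library after TMM scaling, and are not divided by transcript length, so they compare libraries and not genes. The cardiomyocyte markers myl7, tnnt2a, tnni1b, cmlc1, myh6, nppa and tpm4a were detected in each library, with a summed level of 59814 to 84981 CPM across GFP-negative libraries against 35321 to 44269 CPM; 4 of the 7 (myl7, tnnt2a, cmlc1 and tpm4a) fell and myh6 rose in GFP-positive libraries.

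None of the listed genes passed the test between the groups. Of 21 tested, 0 rose and 0 fell at an adjusted p under 0.05 (edgeR quasi-likelihood test), where 4.21% of all 13490 tested genes passed, 2.08% higher and 2.13% lower. At an unadjusted p under 0.05 there were 6 (28.6%), beside 18.9% of all tested genes. DESeq2 called 1 gene higher, fkbp1ab, and 1 lower, casq2; over all genes it called 12.4%, 6.95% higher and 5.4% lower. Limma-voom called cacnb1 lower; over all genes it called 4.86%, 2.8% higher and 2.06% lower. The log2 fold changes (GFP-positive over GFP-negative throughout) were positive for 8 genes and negative for 13, with a median of -0.07 beside 0.01 over all tested genes. As a group, the 30 genes held 0.684%, 0.742% and 0.804% of all counts in GFP-negative and 0.519%, 0.405% and 0.538% in GFP-positive replicates 1, 2 and 3. Of the counts that are not mitochondrially encoded they held 0.865% ± 0.0564 and 0.819% ± 0.132 (SD, n = 3), with overlap. A missed threshold does not show equal expression, so 95% intervals are given below. In sorted bulk samples, fewer cells of a type and less RNA per cell cannot be told apart.

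The groups did not overlap for 9 of the 21 genes, 42.9%, where 29.6% of all tested genes had separate groups. For 7 of them, atp2a2a, casq2, jph1a, jph2, cacna1g, cacnb1 and cacna2d2a, the 3 GFP-positive libraries lay below the 3 GFP-negative ones, and for fkbp1aa and fkbp1ab they lay above. The background was 17.6% of tested genes below and 12.1% above. Without GFP-positive replicate 3, cacnb1 and slc8a1a passed the test as lower and camk2d1 as higher, in a fit that called 7.11% of all genes, 3.09% higher and 4.01% lower. Each of the other 5 fits that left out a library called 0 members. Among all genes, 44 to 1018 were called when a library was left out, against 568 with all 6 (280 higher and 288 lower). Upper-quartile factors gave 258 higher and 450 lower, and scaling without a composition factor 196 and 507, with the median over all genes at -0.11 and -0.16 on the log2 scale. casq2 passed as lower under both scalings.

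**Figure D1:**
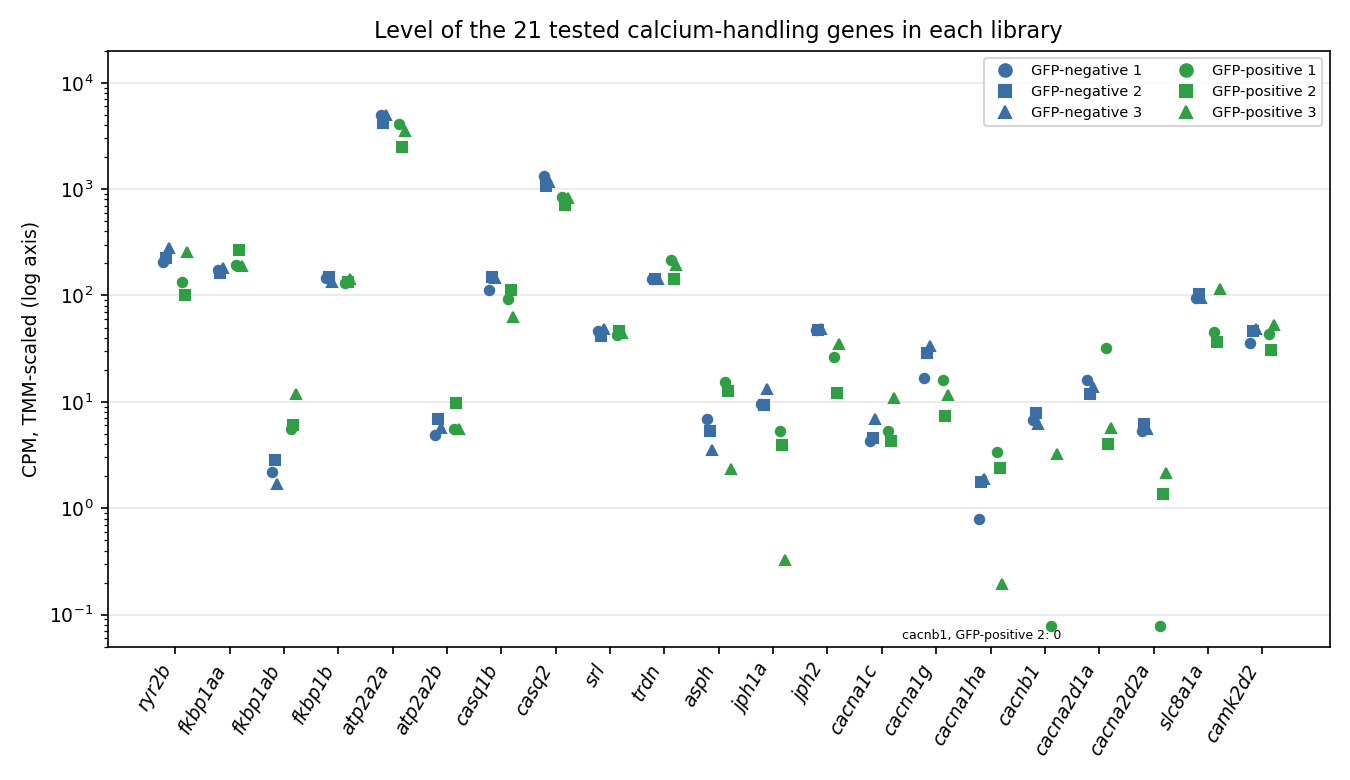
Level of each of the 21 tested genes in each library, in TMM-scaled CPM on a log axis; blue marks GFP-negative and green GFP-positive libraries, and the marker shape gives the replicate. The spread of the green points is wider than that of the blue points for 18 of the 21 genes, and cacnb1 has 0 counts in GFP-positive replicate 2.

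GFP-positive libraries varied more among themselves. The coefficient of variation over 3 libraries was larger in the GFP-positive group for 18 of 21 genes, with a median of 44.2% against 15.6% in the GFP-negative group. Over all tested genes the medians were 62.0% and 19.9%. The genes steadiest in GFP-positive libraries were srl at 3.85%, fkbp1b at 4.59% and casq2 at 8.95%, and the most variable were cacnb1 at 167% and cacna2d1a at 113%.

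SR calcium uptake in the heart rests mainly on SERCA2, the pump encoded by the paralogs atp2a2a and atp2a2b. atp2a2a (ENSDARG00000029439) stood at 4975, 4175 and 4942 CPM in GFP-negative replicates 1, 2 and 3 and at 4081, 2506 and 3484 CPM in GFP-positive replicates 1, 2 and 3. Each GFP-positive library was below each GFP-negative library, the nearest by less than 100 CPM. The log2 fold change was -0.48 ± 0.20 (SE; 95% interval -0.96 to -0.01) with an edgeR adjusted p of 0.251, not past the test.

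atp2a2b (ENSDARG00000005122) was near 6 CPM in both groups, with means of 5.86 ± 1.04 without GFP and 6.93 ± 2.37 with it (SD, n = 3), and the groups overlapped. Of the counts of the pair, atp2a2a took 99.9% in GFP-negative and 99.8% in GFP-positive libraries. Shares within a pair are of counts, not corrected for transcript length, and close paralogs are uncertain to the degree that the counting could split their reads. Among the counts of all 30 genes, atp2a2a made up 60.3% to 68.5% in each of the 6 libraries. Phospholamban, the inhibitor of this pump in mammals, is encoded by pln, which matched no row. Other SERCA genes, outside the 34, were named after their values were seen. atp2a1 had 76 counts in the GFP-negative and 345 in the GFP-positive group, with no overlap in CPM. It did not pass (log2 fold change 2.62 ± 0.86, edgeR adjusted p = 0.145). atp2a3 had 167 and 324 counts, with overlap (log2 fold change 1.39 ± 1.03, edgeR adjusted p = 0.599). atp2a1l had 2 counts in each group.

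Calsequestrins buffer calcium inside the SR, and in mammals casq2 is the cardiac and casq1 the skeletal muscle form. casq2 (ENSDARG00000008982) stood at 1316, 1073 and 1161 CPM in GFP-negative and 845, 713 and 824 CPM in GFP-positive replicates 1, 2 and 3. The groups did not overlap and were each tight, with coefficients of variation of 10.4% and 8.95%. Its log2 fold change of -0.58 ± 0.15 (95% interval -0.93 to -0.22) had the smallest adjusted p of the 21 genes, 0.0770 by edgeR, and 0.0197 to 0.354 over the alternatives.

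The 2 casq1 paralogs were far apart in counts. casq1b (ENSDARG00000018105) stood at 111, 149 and 147 CPM in GFP-negative and 92.3, 114 and 63.2 CPM in GFP-positive replicates 1, 2 and 3, with a narrow overlap between GFP-negative replicate 1 and GFP-positive replicate 2. Its log2 fold change was -0.60 ± 0.25 (95% interval -1.19 to -0.0047; edgeR adjusted p = 0.260). casq1a gave 13 counts in the GFP-negative group and 8 in the GFP-positive group, so that casq1b held 99.8% of the pair's counts in each group. Skeletal muscle markers were at a summed level of 2.46 to 5.77 CPM in GFP-negative libraries and 6.25 to 15.7 CPM in GFP-positive ones, and none of their 3 tested members passed. The markers were not uniform, with actn3a at 23 counts in the GFP-negative and 2 in the GFP-positive group. The part of these markers in the casq1b values was not tested.

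Sarcalumenin, a calcium-binding glycoprotein of the SR lumen, was among the most even genes of the set. Its gene srl (ENSDARG00000104587) stood at 46.7, 41.7 and 48.6 CPM in GFP-negative and 42.9, 46.3 and 44.8 CPM in GFP-positive replicates 1, 2 and 3. The groups overlapped fully, and the fold change was -0.03 ± 0.19 (log2; 95% interval -0.48 to 0.42; edgeR adjusted p = 0.973). The sign of this value changed in 4 of 16 alternatives.

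Calcium leaves the SR through ryanodine receptors. ryr2b (ENSDARG00000003706), a cardiac-type ryanodine receptor gene, stood at 208, 225 and 281 CPM in GFP-negative and 135, 101 and 259 CPM in GFP-positive replicates 1, 2 and 3. GFP-positive replicate 3 lay inside the GFP-negative range and the other 2 GFP-positive libraries below it. Its log2 fold change was -0.53 ± 0.35 (95% interval -1.34 to 0.28, edgeR adjusted p = 0.526). Over the fits that left out a library it was -1.03 to -0.20, with an edgeR adjusted p of 0.0509 to 0.922. The lowest value came without GFP-positive replicate 3.

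Inositol trisphosphate receptors are the other class of SR release channel, and the genes itpr1a and itpr2 were near the limit of detection. itpr1a gave 15 counts in the GFP-negative group and 4 in the GFP-positive group. itpr2 had 25 and 2 counts, a scaled ratio of 9.65 in favour of GFP-negative libraries (exact 95% counting interval 2.41 to 84.1). Ratios of a gene's summed counts between the groups, here and below, are scaled by the groups' TMM-scaled library sizes. GFP-negative replicate 1 held 0 of the 25 itpr2 counts, so the group itself was uneven. A further receptor gene outside the 34, itpr1b (ENSDARG00000074149), had 44, 55 and 100 counts in GFP-negative and 20, 3 and 5 counts in GFP-positive replicates 1, 2 and 3, named after its values were seen. Its groups did not overlap, and it did not pass (log2 fold change -2.31 ± 1.12, edgeR adjusted p = 0.339). The receptor gene itpr3, also outside the 34, had 10 counts in the GFP-negative and 8 in the GFP-positive group, with overlap. Counting intervals cover counting error only, since amplified reads without molecular identifiers are not independent molecules.

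FK506-binding proteins attach to ryanodine receptors and steady their closed state; fkbp1b encodes the form known from cardiac ryanodine receptors in mammals. fkbp1b (ENSDARG00000052625) stood at 146, 149 and 135 CPM in GFP-negative and 132, 134 and 143 CPM in GFP-positive replicates 1, 2 and 3. The groups overlapped, and the log2 fold change of -0.07 ± 0.15 had the narrowest interval beside casq2, -0.43 to 0.28 (edgeR adjusted p = 0.902).

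fkbp1aa (ENSDARG00000022684) stood at 175, 163 and 182 CPM in GFP-negative and 193, 267 and 189 CPM in GFP-positive replicates 1, 2 and 3. The GFP-positive libraries were above the GFP-negative ones without passing the test (log2 fold change 0.32 ± 0.19, 95% interval -0.12 to 0.75, edgeR adjusted p = 0.464). Its paralog fkbp1ab (ENSDARG00000033567) had 33, 57 and 37 counts in GFP-negative and 72, 94 and 181 counts in GFP-positive replicates 1, 2 and 3, or 2.25 ± 0.578 and 7.81 ± 3.45 CPM (SD, n = 3). The groups did not overlap, and GFP-positive replicate 3 was the highest. Its log2 fold change, 1.79 ± 0.69, was the largest positive value of the set (95% interval 0.18 to 3.40; edgeR adjusted p = 0.210, and 0.0362 by DESeq2).

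The fkbp1ab share of the pair's counts was 0.927% to 1.73% in GFP-negative and 2.22% to 5.88% in GFP-positive libraries. This ratio within a library does not depend on library scaling. The mean log2 ratio of fkbp1aa to fkbp1ab was 1.43 lower in GFP-positive libraries, with no overlap (two-sided exact permutation p = 0.1; no smaller p is possible with 3 libraries a group; 0.48 adjusted over the 8 paralog pairs). The groups of the other 7 pairs overlapped in this ratio, with p from 0.2 to 0.9.

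Junction proteins hold the SR against the plasma membrane and tie calsequestrin to the release channel. trdn (ENSDARG00000041779), which encodes the anchor protein triadin, stood at 144, 142 and 142 CPM in GFP-negative and 215, 143 and 193 CPM in GFP-positive replicates 1, 2 and 3. The GFP-negative values were within 2 CPM of each other, and GFP-positive replicate 2 fell inside that range. Its log2 fold change was 0.37 ± 0.19 (95% interval -0.08 to 0.81; edgeR adjusted p = 0.383).

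jph2 (ENSDARG00000028625) encodes junctophilin 2, which spans the gap between plasma membrane and SR in heart muscle. It stood at 47.8, 46.9 and 48.4 CPM in GFP-negative and 26.7, 12.2 and 34.7 CPM in GFP-positive replicates 1, 2 and 3. The GFP-positive libraries were all lower and more widely spread. The log2 fold change was -0.96 ± 0.38 (95% interval -1.84 to -0.08; edgeR adjusted p = 0.219).

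jph1a (ENSDARG00000058603), a junctophilin gene of the type known from skeletal muscle in mammals, had 144, 187 and 285 counts in GFP-negative and 69, 61 and 5 counts in GFP-positive replicates 1, 2 and 3. GFP-positive replicate 3 was far below the other 2, and the log2 fold change of -1.74 ± 0.92 had an interval of -3.89 to 0.41 (edgeR adjusted p = 0.391). asph (ENSDARG00000055945), whose mammalian counterpart gives both a hydroxylase and the SR protein junctin, showed the same low replicate 3. It had 105, 105 and 77 counts in GFP-negative and 200, 198 and 36 counts in GFP-positive replicates 1, 2 and 3 (log2 fold change 0.96 ± 0.75, 95% interval -0.80 to 2.71, edgeR adjusted p = 0.629).

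**Figure D2:**
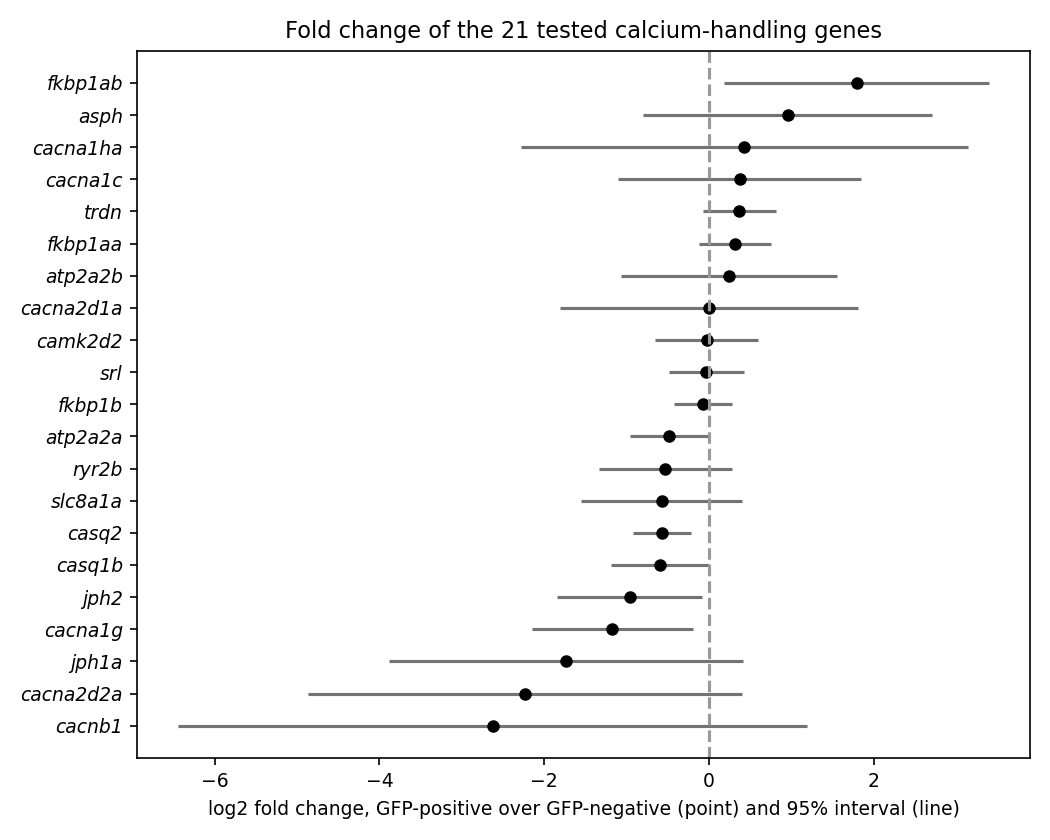
Log2 fold change of GFP-positive over GFP-negative libraries (points, horizontal axis) with its 95% interval (lines) for the 21 tested genes, ordered by value. Intervals are narrowest for casq2 and fkbp1b and widest for cacnb1, from -6.45 to 1.19. No gene passed the test after adjustment over all genes.

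The L-type channel, which triggers SR release in mammalian cardiomyocytes, has its pore encoded by cacna1c. cacna1c (ENSDARG00000008398) had 65, 91 and 151 counts in GFP-negative and 68, 67 and 168 counts in GFP-positive replicates 1, 2 and 3. In CPM this was 4.31, 4.56 and 6.97 against 5.27, 4.32 and 10.9, so the groups overlapped and GFP-positive replicate 3 was the highest of the 6 libraries. The log2 fold change was 0.37 ± 0.63 (95% interval -1.10 to 1.85; edgeR adjusted p = 0.875), and its sign changed in 2 of 16 alternatives. cacna1da, an L-type pore gene known from pacemaker cells in mammals, was at 0 in each GFP-negative library and had 3, 0 and 6 counts in GFP-positive replicates 1, 2 and 3. Its 9 counts in all, set against a floor of 3 counts over the GFP-negative group, gave a scaled ratio of 3.89. No counting interval was computed for this ratio, which rests on few counts and is not a lower limit.

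T-type channels open at lower voltage and are known from pacemaker and conduction tissue. cacna1g (ENSDARG00000089913) stood at 16.7, 28.8 and 33.4 CPM in GFP-negative and 16.0, 7.34 and 11.6 CPM in GFP-positive replicates 1, 2 and 3. The groups were separated by less than 1 CPM, between GFP-negative replicate 1 and GFP-positive replicate 1. Its log2 fold change was -1.18 ± 0.42 (95% interval -2.15 to -0.20; edgeR adjusted p = 0.179).

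The other T-type genes were low. cacna1ha had 12, 35 and 41 counts in GFP-negative and 44, 37 and 3 counts in GFP-positive replicates 1, 2 and 3, so its low values fell in both groups (log2 fold change 0.43 ± 1.16, edgeR adjusted p = 0.930). cacna1hb had 0 counts in each GFP-negative library and 1, 2 and 3 counts in GFP-positive replicates 1, 2 and 3. Its 6 counts, set against a floor of 3 counts over the GFP-negative group, gave a scaled ratio of 2.59, again with no counting interval computed.

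Auxiliary subunits bring the pore to the membrane and tune its gating. cacnb1 (ENSDARG00000002167), the β subunit gene of the skeletal muscle channel in mammals, had 103, 155 and 134 counts in GFP-negative and 1, 0 and 50 counts in GFP-positive replicates 1, 2 and 3. It was nearly undetected in 2 GFP-positive libraries and at 3.25 CPM in replicate 3, against 6.18 to 7.77 CPM in GFP-negative libraries. The log2 fold change of -2.63 ± 1.63 did not pass (edgeR adjusted p = 0.499). Over the fits that left out a library it was -7.33 to -1.93, with an edgeR adjusted p of 0.0219 to 0.818, lowest without GFP-positive replicate 3. By limma-voom with quality weights it was -5.86 (adjusted p = 0.0371).

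cacnb2a and cacnb2b, paralogs of the main cardiac β subunit gene of mammals, were almost absent. cacnb2a gave 3 counts in the GFP-negative group and 7 in the GFP-positive group. The scaled ratio was 3.02, with an exact 95% counting interval of 0.690 to 18.1. cacnb2b gave 2 and 2, below the floor of 3 counts. A difference was not detectable at this depth for either paralog.

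The α2δ subunits were uneven. cacna2d2a (ENSDARG00000103390) had 80, 123 and 120 counts in GFP-negative and 1, 21 and 33 counts in GFP-positive replicates 1, 2 and 3, all lower (log2 fold change -2.24 ± 1.13, 95% interval -4.87 to 0.40, edgeR adjusted p = 0.362). cacna2d1a (ENSDARG00000014804) stood at 16.2, 11.8 and 13.7 CPM in GFP-negative and 32.0, 3.99 and 5.73 CPM in GFP-positive replicates 1, 2 and 3. GFP-positive replicate 1 was above the GFP-negative range and the other 2 below it, so the fold change was near 0, with a 95% interval of -1.81 to 1.81. Over the fits that left out a library it was -1.45 to 0.45, lowest without GFP-positive replicate 1 (edgeR adjusted p = 0.125).

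The sodium/calcium exchanger, which removes calcium from the cell after each beat, is encoded by slc8a1a in the zebrafish heart. slc8a1a (ENSDARG00000013422) stood at 94.9, 103 and 95.6 CPM in GFP-negative and 45.0, 36.9 and 115 CPM in GFP-positive replicates 1, 2 and 3. GFP-positive replicate 3 was above each GFP-negative library, while the other 2 were below 50 CPM. The log2 fold change was -0.58 ± 0.42 (95% interval -1.55 to 0.40, edgeR adjusted p = 0.590). Over the fits that left out a library it was -1.27 to -0.20, with an edgeR adjusted p of 0.0263 to 0.909. The lowest value came without GFP-positive replicate 3, the library that differed from the other 2. slc8a1b had 2, 1 and 0 counts in GFP-negative and 40, 3 and 0 counts in GFP-positive replicates 1, 2 and 3, so a single library held most of its counts.

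CaMKIIδ is a kinase that phosphorylates the ryanodine receptor and phospholamban. camk2d2 (ENSDARG00000014273) stood at 35.5, 46.5 and 48.0 CPM in GFP-negative and 43.4, 31.0 and 53.0 CPM in GFP-positive replicates 1, 2 and 3, overlapping (log2 fold change -0.03 ± 0.27, 95% interval -0.65 to 0.60, edgeR adjusted p = 0.982). Its paralog camk2d1 (ENSDARG00000043010) had 5, 6 and 1 counts in GFP-negative and 153, 68 and 1 counts in GFP-positive replicates 1, 2 and 3. GFP-positive replicates 1 and 2 were far above the GFP-negative libraries, and replicate 3 was among them. camk2d1 took 21.5% and 12.4% of the pair's counts in GFP-positive replicates 1 and 2, 0.123% in replicate 3, and at most 0.924% in a GFP-negative library. It did not pass the expression filter with all 6 libraries. Without GFP-positive replicate 3, the GFP-positive library with 1 count, it did, with a log2 fold change of 5.14 ± 0.94 (edgeR adjusted p = 0.0399). It also passed the filter without GFP-negative replicate 1, 2 or 3, where it was not called (edgeR adjusted p = 0.499, 0.465 and 0.572).

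No single GFP-positive library was at the extreme throughout. GFP-positive replicate 3 had the highest value of its group for 9 of the 21 tested genes and the lowest for 6, replicate 1 for 8 and 4, and replicate 2 for 4 and 11. Replicate 3 was the highest for ryr2b, slc8a1a, jph2, cacna1c and cacnb1 and the lowest for jph1a and asph.

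The release channel and the L-type channel are the pair that couples membrane excitation to SR release in mammals. The ratio of their counts differed between the groups and varied less within each. ryr2b had 48.4, 49.4 and 40.3 counts per cacna1c count in GFP-negative and 25.6, 23.3 and 23.7 in GFP-positive replicates 1, 2 and 3. GFP-positive replicate 3 was the highest of its group for each gene alone and lay between the other 2 in their ratio. The means were 46.0 ± 4.98 and 24.2 ± 1.22 (SD, n = 3). The ratio was chosen after the values were seen and was not tested. With cacna1c at only 68 and 67 counts in GFP-positive replicates 1 and 2, the closeness of the GFP-positive ratios cannot be told from counting error.

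Triadin relative to its binding partner was higher in GFP-positive libraries. There were 69.0, 63.0 and 50.7 trdn counts per 100 ryr2b counts in GFP-negative and 160, 142 and 74.5 in GFP-positive replicates 1, 2 and 3. These ratios do not depend on library scaling but were chosen after the values were seen and are not tested; of all 210 ratios between tested members, 84 (40.0%) had groups that did not overlap.

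**Figure D3:**
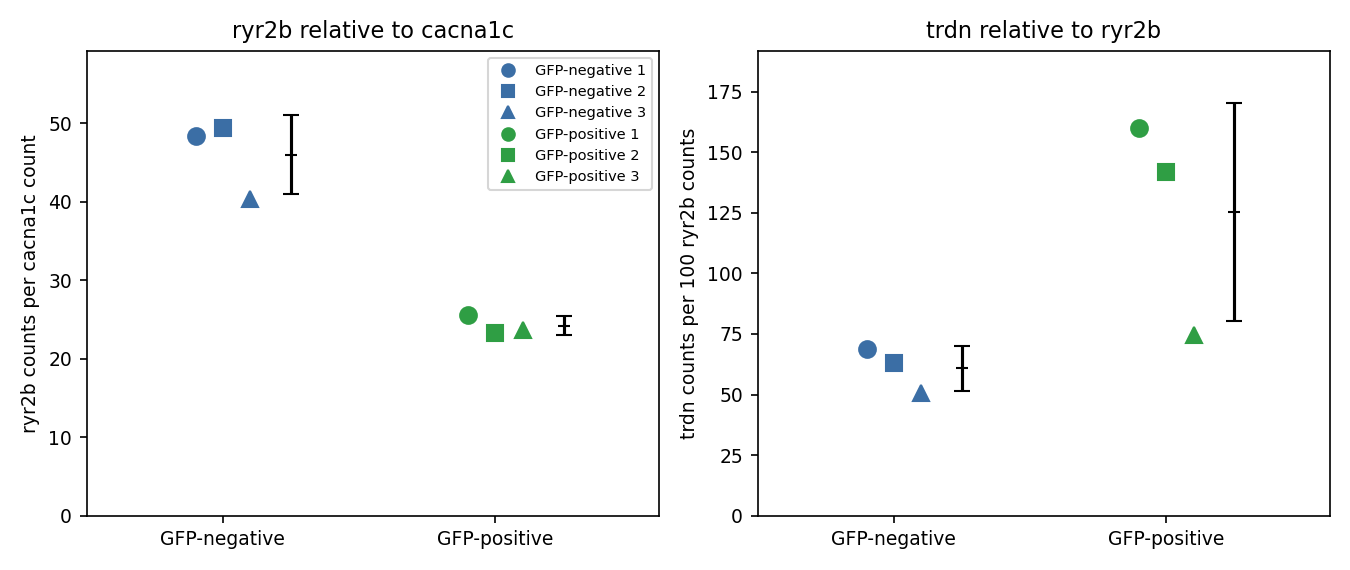
Counts of ryr2b per cacna1c count (left) and of trdn per 100 ryr2b counts (right) in each library; the black bar is the mean ± SD of 3 libraries. The GFP-positive libraries lie between 23.3 and 25.6 on the left, below the GFP-negative range of 40.3 to 49.4, and between 74.5 and 160 on the right, above the GFP-negative range of 50.7 to 69.0.

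Several SR genes were higher in GFP-positive libraries when counted against myl7 or tnnt2a, sarcomere genes that themselves fell, while the sarcomere gene myh6 rose. The myosin light chain gene myl7 (ENSDARG00000019096) fell by 0.98 on the log2 scale (SE 0.18, edgeR adjusted p = 0.0321) and the troponin T gene tnnt2a (ENSDARG00000020610) by 1.03 (SE 0.17, adjusted p = 0.0239); the myl7 call was lost in each fit without 1 of the 6 libraries, at adjusted p from 0.0522 to 0.146. The tnnt2a call was lost without GFP-negative replicate 1 or 3 or GFP-positive replicate 1 or 2, at adjusted p from 0.0736 to 0.128 (edgeR). Per 100 myl7 counts, casq2 had 3.79, 4.34 and 4.31 counts in GFP-negative and 5.37, 5.64 and 5.35 counts in GFP-positive replicates 1, 2 and 3. trdn had 0.505 ± 0.0822 and 1.25 ± 0.120 counts on the same base (SD, n = 3), and fkbp1b 0.508 ± 0.0920 and 0.943 ± 0.112.

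Of the 21 genes, 10 had all GFP-positive libraries above the GFP-negative ones relative to myl7: fkbp1aa, fkbp1ab, fkbp1b, atp2a2a, atp2a2b, casq2, srl, trdn, cacna1c and camk2d2. On the same base 35.4% of all tested genes lay above and 4.41% below. cacna2d2a lay below and the other 10 overlapped. The same genes were separated relative to tnnt2a, with 36.4% of all tested genes above and 4.37% below. In CPM, all GFP-positive libraries lay below the GFP-negative ones for atp2a2a and casq2, so their direction depends on the base. Relative to the troponin I gene tnni1b, which did not pass the test between groups, fkbp1ab and trdn lay above and jph1a, jph2, cacnb1 and cacna2d2a below, with 16.7% of all tested genes above and 10.2% below. The pattern relative to sarcomere transcripts therefore depends on the reference gene, and it was examined after the values were seen.

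**Figure D4:**
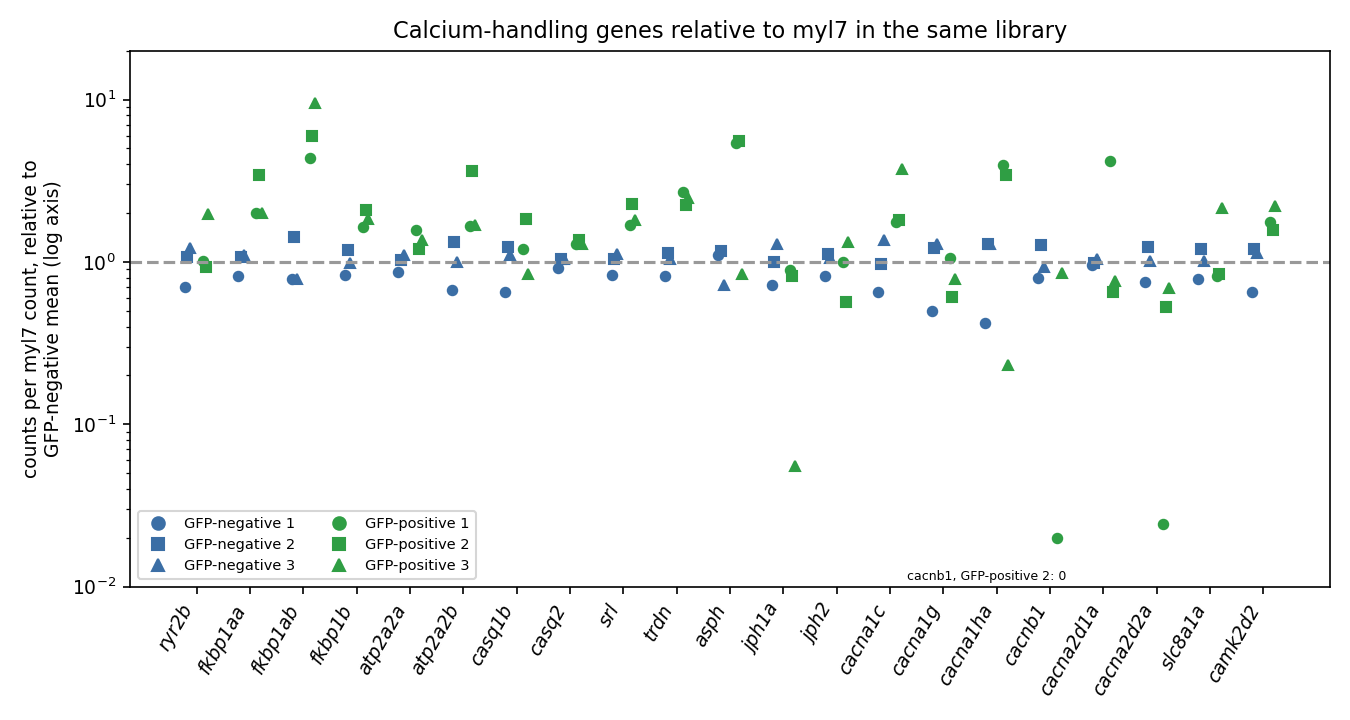
Counts of each of the 21 tested genes per myl7 count in each library, divided by the mean of the 3 GFP-negative libraries (vertical log axis); blue marks GFP-negative and green GFP-positive libraries. All 3 green points lie above all blue points for 10 genes, trdn, srl and fkbp1b among them, and below them for cacna2d2a.

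Other calcium-handling genes, from a further list of 97 symbols, held 4 calls. Of 83 that matched a row, 44 were tested: 2 rose, 2 fell and 40 did not pass. The 4 calls are 9.09% of those tested, beside 4.21% of all genes; with the libraries unchanged, DESeq2 called 8 higher and 4 lower, and edgeR without a composition factor 0 higher and 4 lower. The list had a median log2 fold change of -0.02 beside 0.01 over all genes. sri (ENSDARG00000058593) encodes sorcin, a calcium sensor that binds ryanodine receptors in mammals. It rose from 35.0, 45.1 and 36.0 CPM in GFP-negative to 85.2, 91.6 and 110 CPM in GFP-positive replicates 1, 2 and 3 (log2 fold change 1.30 ± 0.21, edgeR adjusted p = 0.0215). atp2b1a (ENSDARG00000012684), a plasma membrane calcium pump gene, rose from a mean of 6.69 ± 1.41 CPM to 23.2 ± 3.45 CPM (SD, n = 3), a log2 fold change of 1.79 ± 0.36 (edgeR adjusted p = 0.0385).

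The 2 genes that fell were a kinase and a channel subunit gene. camk2a (ENSDARG00000053617), the α form of the CaMKII kinase, fell from 26.4, 24.2 and 21.9 CPM to 2.64, 7.73 and 4.69 CPM (log2 fold change -2.27 ± 0.47, edgeR adjusted p = 0.0445). cacnb4a (ENSDARG00000009738), a channel β subunit gene, fell from 167 counts in the GFP-negative group to 2 in the GFP-positive group (log2 fold change -5.87 ± 1.27, edgeR adjusted p = 0.0486). Leaving out any of GFP-negative replicates 1, 2 and 3 or GFP-positive replicates 1 and 2 left 0 calls in this list, and without GFP-positive replicate 3 it had 3 higher and 2 lower.

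Summed marker levels of 6 other cell types (endothelial, fibroblast, epicardial, smooth muscle, skeletal muscle and erythrocyte) were higher in all 3 GFP-positive libraries without overlap, and their part in the values above was not tested. Single markers did not all follow these sums. The epicardial marker wt1a had 29 counts in the GFP-negative and 3 in the GFP-positive group, and the skeletal muscle marker actn3a 23 and 2. Both were lower in all 3 GFP-positive libraries. By summed level, endocardial and endothelial markers (8 genes, egfl7 and cdh5 the most abundant) were at 65.6 to 114 CPM in GFP-negative libraries and 256 to 301 CPM in GFP-positive ones, with 1 of 8 tested called higher. Fibroblast markers (7 genes, led by col1a1b and dcn) were at 120 to 290 and 632 to 879 CPM, with 3 of 7 higher. Epicardial markers (6 genes, led by gata5 and aldh1a2) were at 101 to 169 and 250 to 338 CPM, with 2 of 5 higher. Most of the GFP-negative sum came from gata5, at 76.8 to 137 CPM against 141 to 165 CPM in GFP-positive libraries, and it was not called.

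Smooth muscle markers (6 genes, led by acta2 and tagln), a cell type that also uses cacna1c, ryanodine and inositol trisphosphate receptors, were at 165 to 282 CPM in GFP-negative libraries and 548 to 982 CPM in GFP-positive ones, with 2 of 5 higher. Most of the smooth muscle sum came from acta2, at 156 to 273 CPM in GFP-negative and 530 to 921 CPM in GFP-positive libraries. acta2 is also known from immature cardiomyocytes. The 2 called genes were acta2 and tagln. myh11a overlapped, with 28, 109 and 71 counts in GFP-negative and 69, 123 and 23 counts in GFP-positive replicates 1, 2 and 3. cnn1b, mylka and desmb also overlapped, each highest in GFP-positive replicate 1. Whether smooth muscle cells differed in number was not tested. Erythrocyte markers (3 genes, led by hbaa1 and alas2) were at 321 to 413 and 988 to 1343 CPM, with 1 of 3 higher. Macrophage markers (5 genes, led by lcp1 and mpeg1.1) were at 66.6 to 216 and 53.9 to 226 CPM, with 0 of 4 called, and neuronal and glial markers (6 genes, led by syt1a and elavl4) at 15.5 to 32.7 and 15.3 to 26.4 CPM, with 0 of 3 called. Among the 9 skeletal muscle markers, led by mylpfa and mybpc2b, myhz2 had 0 counts in the GFP-negative group, and tnnt3a and pvalb1 had 0 in the GFP-positive group.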

How the data were processed

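Cardiomyocytes were released with collagenase at 3 mg/ml for 30 min, sorted, and made into cDNA with SMART-Seq v4 and libraries with a directional NEBNext kit, per the labels' protocols. The authors deposited raw counts of reads for 25281 genes in each of 6 tables, which carry whole numbers headed as total counts. The aligner, counter, build, annotation and use of strand were not given in the sources used here. Reads of antisense or overlapping genes may therefore be mixed.

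The test was edgeR 4.0.16 (R 4.3.3): filterByExpr, TMM, a robust quasi-likelihood F test with group as the only term, and Benjamini-Hochberg adjustment over 13490 genes at 0.05. Standard errors come from the fold change and F, and 95% intervals from the test's degrees of freedom. Paralog ratios used a pseudocount of 0.5 counts and exact permutation of libraries. Alternatives were other scalings, filters, DESeq2 1.42.0, limma 3.58.1 voom, a replicate block and leaving out each library. The fit was tested on simulated data. Members and lists were chosen with earlier results of these data known. Named genes were all members, myl7 and tnnt2a, up to 8 called genes of the further calcium list, and the 2 most abundant markers of each cell type list. Some further genes, among them itpr1b, atp2a1, atp2a3, ryr1a, ryr1b and ryr3, were named after their values were seen. Pairs within a group differed by more than sampling noise.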

Additional observations from a re-analysis of the deposited data

How the results depend on the processing

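With all libraries, 0 members were called higher and 0 lower under RLE scaling, removal of mitochondrially encoded genes, no or a stricter expression filter, the non-robust fit and the replicate block. Members called lower numbered 1 with upper-quartile factors, without a composition factor, by DESeq2 and by limma-voom, and DESeq2 called 1 member higher. Leaving out a library gave 0 to 1 higher and 0 to 2 lower. All genes called numbered 1667 by DESeq2, and 44 to 1018 when a library was left out, against 568.

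The labels do not say that replicate numbers pair the libraries, so the main fit used no pairing. Same-numbered libraries deviated together with correlations of 0.13, 0.19 and 0.09, each the highest for its library. Differently numbered libraries had correlations of -0.12 to -0.012. Deviations were taken from each group's mean, which pushes these values down where the same-numbered ones are high. They are therefore no separate evidence of pairing. The same-numbered correlations are a hint of pairing from the data and not from the design. With the replicate block, 572 genes were called (282 higher, 290 lower), and the median change over all genes moved to -0.29 (log2), and to -0.30 with limma-voom. The median over the 21 tested members moved from -0.07 to -0.51 with the block and to -0.37 with limma-voom. The block left 1 call in the further calcium list, sri; atp2b1a (edgeR adjusted p = 0.0738), camk2a (0.0596) and cacnb4a (0.151) were not called with it.

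Sign changes were seen for 7 genes, none of them called. cacna2d1a was -0.088 with upper-quartile factors, -0.22 without a composition factor, -0.038 without a filter, -0.37 with limma-voom and -0.64 with the replicate block, and -1.45 to 0.45 without a library. camk2d2 was 0.036 with RLE scaling and 0.036 with DESeq2, 0.0015 without mitochondrial genes, and -0.23 to 0.22 without a library. srl was 0.027 with RLE scaling and 0.027 with DESeq2, and -0.11 to 0.048 without a library. cacna1c was -0.043 with limma-voom and -0.15 to 0.70 without a library. cacna1ha was -0.025 with the replicate block and -0.20 to 0.95 without a library. fkbp1b was -0.13 to 0.0078 and atp2a2b -0.020 to 0.41 without a library. The difference in log2 paralog ratio, without a library, was -0.37 to 0.85 for casq1a and casq1b, -0.25 to 2.31 for cacnb2a and cacnb2b, and -0.71 to 2.31 for itpr1a and itpr2. The cause of these changes was not tested. Of the 9 genes below the filter, given as counts, 8 had fewer than 50 counts over all libraries and are limited by depth. The other, camk2d1, had 12 counts in the GFP-negative and 222 in the GFP-positive group, nearly all of the latter in replicates 1 and 2.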
